A study of Mus musculus with 10 samples.

Results

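Platelets, the cell fragments without a nucleus that megakaryocytes release into blood, sense agonists released or formed at a wound through receptors for ATP, ADP, thrombin and thromboxane, and are held back by prostacyclin. The 8 genes described here encode those receptors: P2rx1, P2ry1 and P2ry12 for nucleotides, F2r, F2rl2 and F2rl3 for thrombin, Tbxa2r for thromboxane and Ptgir for prostacyclin. They were chosen by symbol, and all 8 are among the 23420 rows of the deposited count table. Platelets were sorted from peripheral blood of adult mice into Tomato+ cells, which carry the red fluorescent protein, and Tomato- cells, which do not, with 5 libraries in each group. The sources used here do not give strain, genotype or the gene that drives Tomato, nor whether the libraries of a group came from separate mice. Every p-value below is thus set by library-to-library spread, part of which may be technical.

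Adenosine diphosphate, a nucleotide stored in dense granules, acts on 2 G protein-coupled receptors of platelets. P2Y1 couples to Gq and releases calcium, and P2Y12 couples to Gi, lowers cyclic AMP and sustains aggregation. P2X1, encoded by P2rx1, is instead an ion channel that ATP opens. Thrombin cuts the protease-activated receptors: in mouse platelets PAR4 (F2rl3) is the receptor that signals, PAR3 (F2rl2) serves as its cofactor, and PAR1 (F2r), the main receptor of human platelets, is not regarded as a platelet receptor. The thromboxane receptor (Tbxa2r) couples to Gq and G13, while the prostacyclin receptor (Ptgir) couples to Gs, raises cyclic AMP and restrains activation.

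Library totals ran from 5411417 to 16179973 counts. Levels below are counts per 1000000 counts of the library (CPM). Of all rows, 80.0% had no count in any library and 1.13% had a count in every library, and replicates 1, 2 and 5 of Tomato- had under 1000 genes with a count. The 10 fixed markers of platelets and megakaryocytes, among them Itga2b, Pf4 and Gp9, had counts in all 10 libraries, and summed to 46390.4 to 62521 CPM in the Tomato+ group, against 50480.3 to 65967 CPM in the Tomato- group. Red cell markers summed to 1.38 to 338 CPM in the Tomato+ group, against 47.7 to 3440.2 CPM in the Tomato- group; B cell, eosinophil, basophil and mast cell markers were at 0, and those of monocytes and of T and NK cells had counts in 1 library each. The sample numbers in the titles run through Tomato+ first and Tomato- second, so any effect of sample order cannot be told apart from the group.

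The 8 receptors fell into 3 kinds. P2ry12 and P2rx1 had counts in all 10 libraries, F2rl2, P2ry1, Ptgir and F2r had counts in 7, 5, 3 and 1 libraries, and F2rl3 and Tbxa2r had no count in any. No receptor was called different between Tomato+ and Tomato- platelets by edgeR's quasi-likelihood test at an adjusted p under 0.05. The 4 receptors that passed the test's filter on low counts, P2rx1, P2ry1, P2ry12 and F2rl2, each had an adjusted p of 0.9996, and the share called over all 1016 genes tested was 0.0% in either direction. P2rx1 had the smallest unadjusted p of the 4 (0.0448), with a higher estimate in Tomato+, and P2ry12 had a lower estimate in Tomato+ (unadjusted p = 0.265). At an unadjusted p under 0.05, edgeR had 9 genes in all, 8 higher (0.787%) and 1 lower (0.0984%) in Tomato+. Over all genes at an adjusted p under 0.05, limma voom called 1 of 1016 (0.0984%) and DESeq2 216 of the 2241 genes to which it gave an adjusted p (9.64%), none of them a receptor described here. In bulk samples, fewer cells of a type and less RNA per cell cannot be told apart, and this holds for each level given here.

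**Figure D1:**
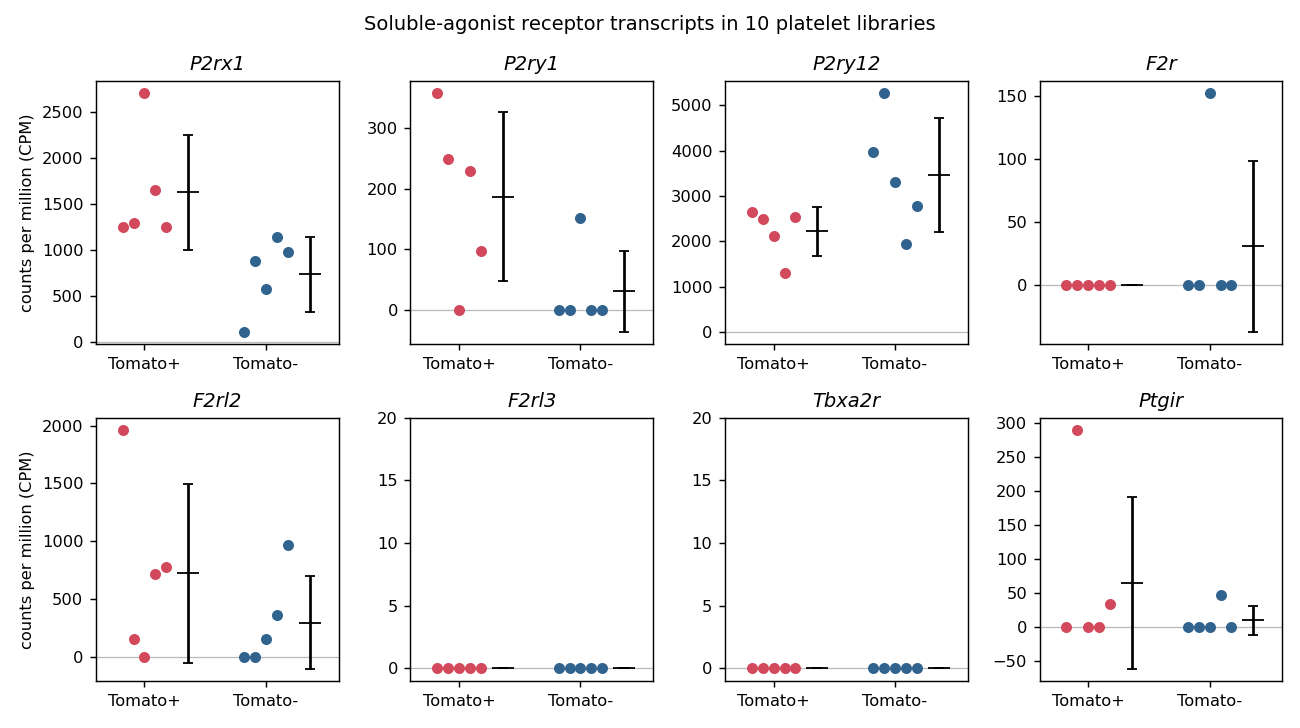
CPM (y axis, linear, a separate scale for each gene) of the 8 receptor genes in 5 Tomato+ and 5 Tomato- platelet libraries, with points ordered by replicate number from left to right; the short line and bar at the side are mean and SD, and SD bars can reach below 0. P2rx1 points of Tomato+ lie between 1247 and 2711 CPM, above the highest Tomato- point at 1138 CPM, while F2rl3 and Tbxa2r are at 0 throughout.

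P2ry12, the Gi-coupled ADP receptor, was the most abundant of the 8 and ranked 55 among all genes by mean CPM. In Tomato+ it had 2650.1, 2487, 2124, 1316 and 2545 CPM in replicates 1 to 5. In Tomato- it had 3977, 5271, 3307, 1949.8 and 2792 CPM. Replicates 1 and 2 of Tomato- stood highest and replicate 4 of Tomato+ lowest, and the groups overlapped, since Tomato- replicate 4 lay below 4 of the Tomato+ libraries. The means were 2225 ± 545 CPM in Tomato+ and 3459.5 ± 1255 CPM in Tomato- (SD, n = 5 each), and the fitted log2 fold change, Tomato+ over Tomato-, was -0.36 (SE 0.31, 95% interval -1.03 to 0.30). That interval spans 0. Fold changes here are on edgeR's TMM scale; on it, the contrast sits 0.24 higher than with scaling by total counts, and the median over all tested genes is 0.21 (-0.03 by total counts). By total counts the estimate for P2ry12 was -0.64, and without the 3 Tomato- libraries with under 1000 detected genes it was -0.20. That last fit, here and below, set 5 Tomato+ libraries against Tomato- replicates 3 and 4 alone. Its filter kept 2157 genes.

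The gene lies on chromosome 3 (59216272 to 59262871, minus strand, GRCm38), inside the gene of the Mediator subunit Med12l on the opposite strand (59005825 to 59318682). Their annotated exons share 9 of the 2546 exonic bases of P2ry12, and the sources used here do not give the strand setting of the authors' counting. Med12l had counts in every library, at 150.0 to 262 CPM (Tomato+) and 155 to 511 CPM (Tomato-). Its counts came to 8.87 to 11.4% of those of P2ry12 in Tomato+ libraries and to 5.86 to 9.70% in Tomato- libraries. The library with the most P2ry12, Tomato- replicate 2, was also the library with the most Med12l, and the library with the least of both was Tomato+ replicate 4. Without strand, reads from the shared bases cannot be told apart.

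**Figure D2:**
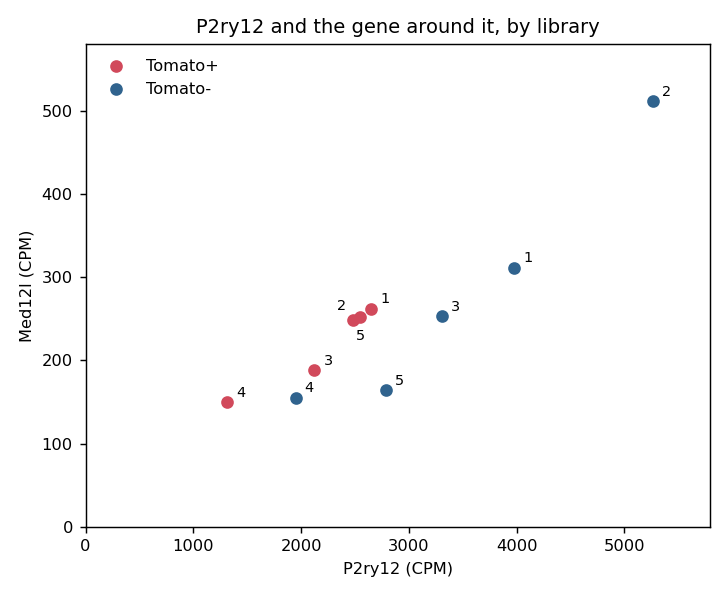
Level of Med12l (y axis, CPM) against P2ry12 (x axis, CPM), 1 point for each of the 10 platelet libraries, coloured by group and numbered by replicate. Tomato- replicate 2 is at the top right with 5271 CPM of P2ry12 and 511 CPM of Med12l, and Tomato+ replicate 4 at the lower left with 1316 and 150.0 CPM.

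P2rx1, the ATP-gated channel (chromosome 11, 72999103 to 73015200, plus strand), ranked 122 among all genes by mean CPM. In Tomato+ it had 1256, 1293, 2711, 1649.9 and 1247 CPM in replicates 1 to 5. In Tomato- it had 104, 879, 577, 1138 and 978 CPM. Every Tomato+ library was above every Tomato- library on this scale, with Tomato+ replicate 3 far above the other 4 of its group and Tomato- replicate 1 far below its own. Such a complete separation with higher values in Tomato+ was seen for 5 of 1016 tested genes (0.492%) on the total-count scale. It did not hold on the TMM scale, where the lowest Tomato+ library had 1279 and the highest Tomato- library 1341 CPM, and 8 genes (0.787%) were separated upward. With DESeq2 size factors P2rx1 was again separated, at 1279 or more against 1131 or less, as were 9 genes (0.886%).

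The mean of P2rx1 was 1631 ± 626 CPM in Tomato+ and 735 ± 408 CPM in Tomato- (SD, n = 5 each), with a log2 fold change of 1.37 (SE 0.63, 95% interval 0.04 to 2.70; edgeR adjusted p = 0.9996). By total counts the estimate was 1.15 (95% interval -0.14 to 2.44) and with DESeq2 size factors 1.25 (-0.04 to 2.54), so the interval left out 0 on the TMM scale and not on these. The two-sided exact permutation test on log2(CPM + 1) gave p = 0.00794, the smallest that 252 assignments allow. That p was reached by 6 of 1016 genes (0.591%), and its adjusted value was 0.896. Without the 3 Tomato- libraries with under 1000 detected genes the estimate was 1.01 (95% interval -0.14 to 2.16). Only Tomato- replicates 3 and 4 remained in that fit. The range was 1.09 to 1.64 when any 1 library was left out.

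**Figure D3:**
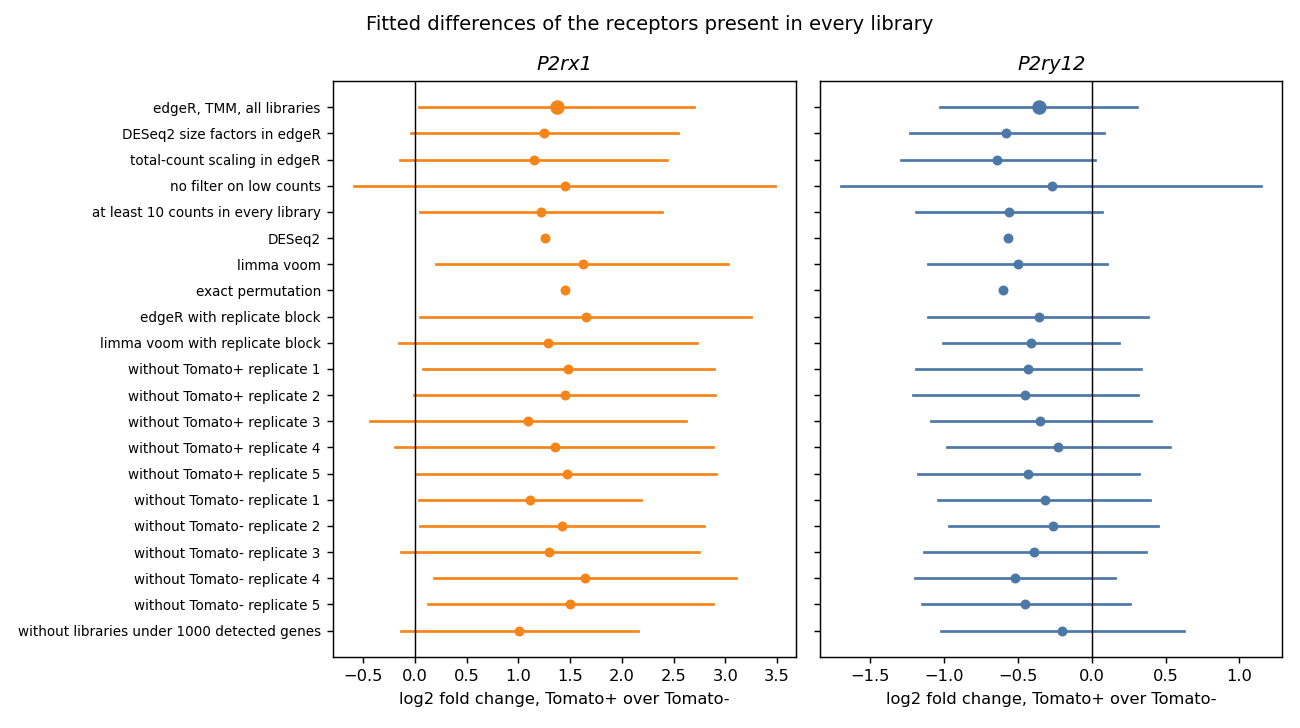
Log2 fold changes, Tomato+ over Tomato- (x axis), of P2rx1 and P2ry12 under each processing setting (y axis), with 95% intervals as lines where the fit gives one; DESeq2 and the permutation test are drawn without. All estimates of P2rx1 lie between 1.01 and 1.65 and all those of P2ry12 between -0.64 and -0.20.

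Neutrophils and smooth muscle cells also carry P2X1, so their markers were read beside it. Of 7 neutrophil markers in the table only S100a9 had a count, at 239.8 CPM in Tomato+ replicate 3, the library with the most P2rx1, and the list summed to 0 in every other library; its partner S100a8 was at 0 throughout. Without that library the Tomato+ mean of P2rx1 was 1362 CPM and the log2 fold change 1.09. Of 4 smooth muscle markers 2 had counts, with sums of 0 to 17.8 CPM (Tomato+) and 0 to 31.0 CPM (Tomato-), and Myh11 and Tagln were at 0. The part of such cells in the P2rx1 level was not tested.

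The estimates of P2ry12 and P2rx1 had opposite signs, so their ratio within a library, which no scaling between libraries affects, was also read, as a description chosen after the values were seen. There were 0.784 to 2.11 counts of P2ry12 for each count of P2rx1 in Tomato+ libraries (median 1.92). In Tomato- libraries there were 1.71 to 38.2 (median 5.73). Tomato- replicate 4, at 1.71, lay inside the Tomato+ range, and the other 4 Tomato- libraries lay above it. P2ry12 made up 33.7 to 55.6% of the counts of the 8 receptors in Tomato+ and 55.8 to 97.5% in Tomato-. These ranges nearly met, at Tomato+ replicate 2 (55.6%) and Tomato- replicate 4 (55.8%). The total holds P2rx1 and receptors at 0 in some libraries, and no such share was computed for other genes. The 8 receptors summed to 3909 to 6229 CPM (Tomato+) and 3493 to 6149.9 CPM (Tomato-), so the groups overlapped in the sum while its make-up differed from library to library.

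**Figure D4:**
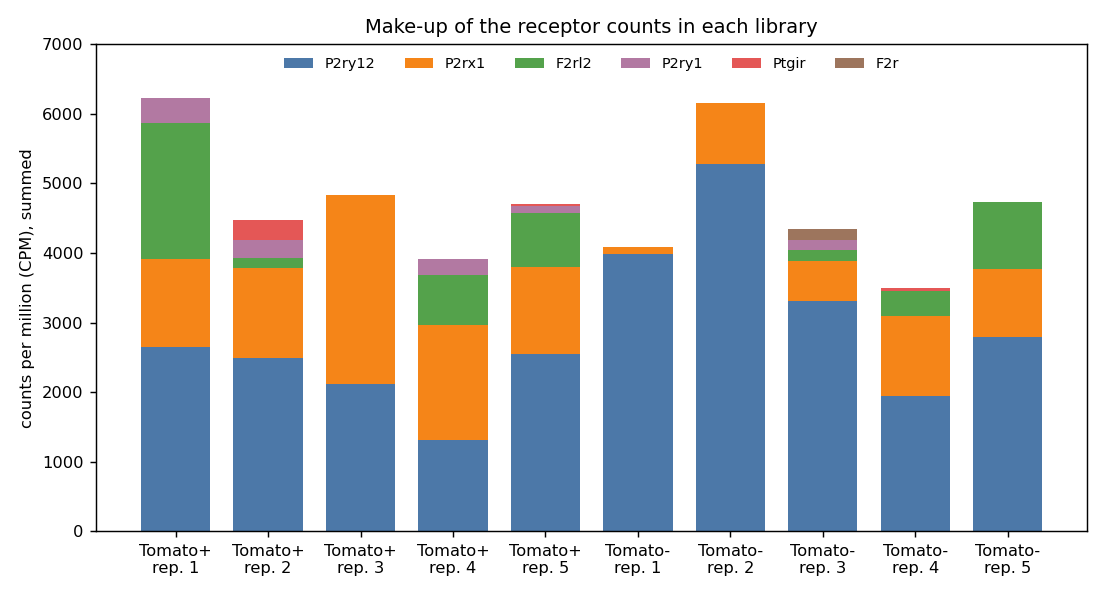
Summed CPM of the receptor genes (y axis, from 0) in each of the 10 platelet libraries, with 1 colour for each gene; F2rl3 and Tbxa2r are at 0 and not drawn. Tomato- replicates 1 and 2 and Tomato+ replicate 3 hold P2ry12 and P2rx1 alone, and P2ry12 takes 97.5% of the bar of Tomato- replicate 1.

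F2rl2, which encodes the thrombin cofactor PAR3 (chromosome 13, 95696853 to 95702739, plus strand), was present in 4 Tomato+ and 3 Tomato- libraries. Replicates 1 to 5 of Tomato+ had 1965, 150.2, 0, 713 and 778 CPM. Those of Tomato- had 0, 0, 157, 358 and 964 CPM. Each group thus held libraries at 0 and libraries at 713 CPM or more, and the groups overlapped over most of their range. Means were 721 ± 774 and 296 ± 401 CPM (SD, n = 5 each), and the log2 fold change of 1.46 had an SE of 2.11 (95% interval -3.01 to 5.93). The estimate was 0.62 without Tomato+ replicate 1 and 2.54 without Tomato- replicate 5. The gene lies in an intron of Iqgap2 on the opposite strand and shares 0 exonic bases with it. Iqgap2 had 121 and 44 counts in Tomato- replicates 3 and 4 and 0 elsewhere, so the F2rl2 counts did not run with those of the gene around it.

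P2ry1, the Gq-coupled ADP receptor (chromosome 3, 61002795 to 61008982, plus strand), was seen in 4 libraries of Tomato+ and in 1 of Tomato-. The Tomato+ levels were 358, 249, 0, 229.7 and 96.5 CPM in replicates 1 to 5. Tomato- replicate 3 had 151 CPM, and the other 4 Tomato- libraries had 0. The groups overlapped, since Tomato- replicate 3 exceeded Tomato+ replicates 3 and 5. Means were 187 ± 139.7 and 30.2 ± 67.5 CPM (SD, n = 5 each), with a log2 fold change of 2.56 (SE 2.89, 95% interval -3.57 to 8.70). Without Tomato- replicate 3 the Tomato- group had no count, and the fitted value of 13.96 then depends on the fit's prior count and is no measure of size (edgeR adjusted p = 0.907). Without the 3 Tomato- libraries with under 1000 detected genes, which left Tomato- replicates 3 and 4, the estimate was 1.26. An antisense gene, Gm37035, covers 992 of the 4291 exonic bases of P2ry1 in the annotation and is not a row of the table analysed here.

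Ptgir, the prostacyclin receptor gene (chromosome 7, 16906490 to 16910905, plus strand), had 290.3 CPM in Tomato+ replicate 2, 32.7 CPM in Tomato+ replicate 5 and 46.9 CPM in Tomato- replicate 4. The other 7 libraries had 0, and the gene did not pass the filter for the test. F2r, which encodes PAR1 (chromosome 13, 95601803 to 95618487, minus strand), had 1607 counts, or 152 CPM, in Tomato- replicate 3 alone, and it did not pass the filter either. With no filter on low counts, edgeR gave F2r an unadjusted p of 0.031 and an adjusted p of 0.128. In that fit 1764 of all 4692 genes had an unadjusted p under 0.05, and none was called at an adjusted p under 0.05. The fitted fold change of F2r against a group at 0 depends on the prior count and is not given. Tomato- replicate 3 also held the only Tomato- counts of P2ry1. Endothelial cells are a known source of PAR1, and the 7 endothelial markers summed to 981 CPM in that library, inside the range of 130.3 to 1725 CPM over all 10. Most of that sum was Pecam1, which platelets also express, with Tie1 and Plvap making up the rest; Cdh5, Tek and Emcn were at 0 in every library, and Kdr had 64.4 CPM in Tomato- replicate 4 and 0 in the others, the library with F2r included. The part of endothelial RNA in the F2r count was not tested.

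F2rl3, the gene of the signalling thrombin receptor PAR4 (chromosome 8, 72761880 to 72763874, plus strand), and Tbxa2r, that of the thromboxane receptor (chromosome 10, 81328731 to 81335172, plus strand), had 0 counts in all 10 libraries. By counting error alone, 0 counts allow up to 3, or 0.185 to 0.554 CPM by library. The labels describe no molecular identifiers for this amplified material, so that limit covers counting error only and does not bound the level in the platelets. In these libraries a receptor transcript went from 0 to over 1000 counts between replicates of a group, as P2ry1 and F2rl2 did. Across the 8 receptors and 10 libraries, 36 of 80 values were above 0, with 20 of 40 in Tomato+ and 16 of 40 in Tomato-. The lowest of the 36 was 375 counts, so a receptor had either no count or at least 375 in each library. Among the 4428 genes with counts in 1 to 9 libraries, 58.8% of the 12260 values above 0 were at or above 375 counts. P2ry12 and P2rx1, with counts in all 10 libraries, are outside that set, though their values are among the 36.

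The number of receptors with counts went with the number of detected genes. The 6 libraries with 1243 to 2450 detected genes had 4 or 5 receptors each: Tomato+ replicates 1, 2, 4 and 5 and Tomato- replicates 3 and 4. The 4 libraries with 807 to 1118 detected genes had 2 or 3: Tomato+ replicate 3 and Tomato- replicates 1, 2 and 5. The part of this difference in the receptor levels was not tested beyond leaving out the 3 Tomato- libraries with under 1000 genes.

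The transcripts also differ in base composition. The longest annotated transcript of P2ry12 has 38.6% G and C, and 6.41% of protein-coding genes in the table have less, while those of F2rl3 and Tbxa2r have 56.8 and 62.5%. P2rx1 (53.7%) and Ptgir (54.5%) lie between, and P2ry1, F2r and F2rl2 have 44.5, 46.5 and 46.4%. The 2 receptors without counts were thus those with the highest G and C share of the 8. Over all protein-coding genes, 19.7% of genes within 2 percentage points of Tbxa2r had a count in some library. The share was 21.6% near F2rl3, 15.2% near P2ry12 and 23.3% near P2rx1. The median G and C share was 50.3% for protein-coding genes with counts in every library and 48.7% for those with none. The part of base composition in the counts was not tested.

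Between genes, levels were compared as CPM per 1000 bases of annotated exon. Over all 10 libraries the order was P2ry12 (1116 ± 440.1), P2rx1 (451 ± 262), F2rl2 (203 ± 249), P2ry1 (25.3 ± 30.8), Ptgir (11.1 ± 27.2) and F2r (4.56 ± 14.4 CPM per kb, mean ± SD, n = 10). P2ry12 was above P2rx1 in 8 of 10 libraries; the exceptions were Tomato+ replicates 3 and 4. P2rx1 was above F2rl2 in 8 of 10. F2rl2 was above P2ry1 in 7 libraries and equal to it, at 0, in 3. P2ry1 was above Ptgir in 4 libraries and below it in 2. The ranges of mean ± SD of every pair of neighbours in this order overlapped, and from F2rl2 to F2r each SD exceeded the mean. The lower end of the order differed between the groups. In Tomato- alone F2r (9.12 CPM per kb) was above P2ry1 (7.03) and Ptgir (2.81), each of them with counts in 1 library. In Tomato+ P2ry1 (43.5) was above Ptgir (19.4), with F2r at 0.

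Promoters are shown for 4 receptors that span the range seen here: P2ry12 and P2rx1 with counts in every library, F2rl2 with counts in 7 and F2rl3 with none. Capitals mark AGATAA, a form of the GATA motif, and AGGAAG, which holds the GGAA core of ETS factors, each on either strand (TTATCT and CTTCCT on the other). GATA1 and ETS factors such as FLI1 are known to control megakaryocyte genes. Windows run from 250 bases before to 50 after a RefSeq start site and are written 5′ to 3′ along the gene. They come from RefSeq on GRCm38.p6, where all 8 receptors matched by symbol. For P2ry12 and F2rl3 the RefSeq start lies upstream of the gene position given above, so the whole window lies outside that position.
P2ry12, chr3:59262936-59263235, minus strand: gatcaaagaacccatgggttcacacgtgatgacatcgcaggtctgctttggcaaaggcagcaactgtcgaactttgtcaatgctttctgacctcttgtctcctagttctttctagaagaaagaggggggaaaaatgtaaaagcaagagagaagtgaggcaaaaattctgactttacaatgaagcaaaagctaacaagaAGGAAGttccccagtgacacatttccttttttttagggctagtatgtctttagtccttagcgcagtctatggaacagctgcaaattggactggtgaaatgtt
P2rx1, chr11:72998895-72999194, plus strand: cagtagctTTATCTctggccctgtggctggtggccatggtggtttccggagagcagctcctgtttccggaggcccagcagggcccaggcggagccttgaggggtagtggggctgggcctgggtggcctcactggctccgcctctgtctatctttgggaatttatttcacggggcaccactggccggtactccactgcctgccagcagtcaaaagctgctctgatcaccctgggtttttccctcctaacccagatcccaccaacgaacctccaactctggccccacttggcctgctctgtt
F2rl2, chr13:95696670-95696969, plus strand: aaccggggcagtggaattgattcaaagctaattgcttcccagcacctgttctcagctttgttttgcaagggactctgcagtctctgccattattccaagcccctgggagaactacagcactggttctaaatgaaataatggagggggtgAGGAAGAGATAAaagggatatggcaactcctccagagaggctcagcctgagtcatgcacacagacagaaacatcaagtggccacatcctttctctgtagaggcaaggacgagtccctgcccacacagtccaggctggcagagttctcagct
F2rl3, chr8:72761409-72761708, plus strand: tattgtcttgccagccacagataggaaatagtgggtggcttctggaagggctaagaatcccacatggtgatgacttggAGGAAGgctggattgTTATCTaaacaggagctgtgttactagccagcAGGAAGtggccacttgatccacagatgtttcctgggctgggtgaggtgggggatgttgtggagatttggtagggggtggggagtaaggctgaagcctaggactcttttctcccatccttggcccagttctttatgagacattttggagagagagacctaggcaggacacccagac

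AGATAA was in 11.2% and AGGAAG in 35.4% of 32851 promoter windows of the same length, and TGATAA, the other GATA form searched on both strands, in 9.1%. The P2ry12 window holds AGGAAG once and no GATA form. The P2rx1 window holds 1 GATA form and no AGGAAG. In the F2rl2 window the motifs adjoin without overlapping, and the F2rl3 window, of a gene at 0 counts, holds AGATAA once and AGGAAG in 2 places. The windows of P2ry1 and F2r hold none of the 3, that of Ptgir holds AGGAAG once, and the 2 windows of Tbxa2r hold AGGAAG in 2 places and none. A match is a description of these letters, and presence of a motif did not separate receptors with counts in every library from those at 0.

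Genes whose level across the 10 libraries was most like that of a receptor were picked by Spearman's rho of CPM, as a description that carries no test. The points share library and depth, and only genes with counts in at least 6 libraries were compared. For P2rx1 they were the aldolase gene Aldoa (rho = 0.92), Necap2 (0.91) and the histone gene Hist1h2ac (0.90), among 858 genes. Mean levels of Aldoa were 1332 (Tomato+) and 697 CPM (Tomato-), and those of Necap2 551 and 54.5 CPM. For P2ry12 they were Ehd4 (0.90), Arhgap10 (0.89) and Gp6 (0.83), among 857 genes. Gp6, the collagen receptor, had means of 429 (Tomato+) and 1481 CPM (Tomato-), and Ehd4 had 806 and 1522 CPM. The rho ran over the libraries of both groups, so genes picked by it can share the receptor's direction between groups. For F2rl2 they were Ahsa1 (0.96), Cd7 (0.93) and Sptbn1 (0.91), among 858 genes. Ahsa1 was in the same number of libraries, 7, as F2rl2. Their means did not all share the direction of F2rl2. Ahsa1 had 148 (Tomato+) and 149 CPM (Tomato-), Cd7 171 and 135 CPM, and Sptbn1 159 and 237 CPM.

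Of 32 other receptors, mainly for nucleotides, proteases, prostanoids, amines and lipids, none had counts in more than 1 library. Counts in some library were seen for 3 of the 32, in a table where 80.0% of all rows had none. The adenosine receptor gene Adora3 had 21.3 CPM in 1 Tomato- library, and Adra2a and S1pr1 had 0.125 and 0.0944 CPM in 1 each. The rest, among them P2ry13 and F2rl1, the neighbours in family of P2ry12 and F2r, had 0 counts in all libraries.

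The signalling chain below the receptors was represented unevenly, and edgeR called none of its genes (0.0% of all genes called in either direction, 9 at an unadjusted p under 0.05). DESeq2 called 1, Grk6, with a higher estimate in Tomato+; it called 6.83% of genes with an adjusted p higher and 2.81% lower. Of 15 G protein genes, 12 had counts and 5 had them in every library. Gng11, a gamma subunit, had 12188 ± 619.6 and 11666 ± 1263 CPM in Tomato+ and Tomato- (SD, n = 5 each). Gnas, the Gs alpha subunit through which the prostacyclin receptor signals, had 9586 ± 1274 against 7796 ± 1240.2 CPM; its estimate was 0.50 on the log2 scale (SE 0.21, edgeR adjusted p = 0.9996). Gnai2, an alpha subunit of the Gi class that P2Y12 uses, had 1425 ± 927 and 1347 ± 1098 CPM. Gnaq and Gna13, the alpha subunits of the P2Y1 and thromboxane receptors, had counts in 3 libraries each. Of the 6 tested G protein genes 3 had a higher and 3 a lower estimate (median log2 fold change 0.04, or -0.18 by total counts), beside medians of 0.21 and -0.03 over all tested genes.

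Among 22 genes of the Gq and G13 branch, 14 had counts and 12 were tested, 4 with a higher and 8 with a lower estimate (median -0.24). Rap1b, the small GTPase that switches on the fibrinogen receptor, had 2947 ± 708 and 3837 ± 1011 CPM, and Rasgrp2, its calcium-dependent exchange factor, had 1281 ± 247 and 1847 ± 491 CPM. Rasa3, which turns Rap1 off, was irregular at 323 ± 342 and 389 ± 371 CPM. Of 18 genes of the Gi and Gs branch, 12 had counts and 6 were tested, 2 with a higher and 4 with a lower estimate (median -0.56). Prkar2b, a regulatory subunit of the cyclic AMP-dependent kinase, had 1154 ± 381 and 1652 ± 1005 CPM, and Prkar1a 421 ± 284 and 302 ± 298 CPM. The catalytic subunit gene Prkaca had 60.4 ± 76.9 against 526 ± 614 CPM, an estimate of -2.79 with an SE of 2.22.

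Of 9 genes that switch receptors off, 7 had counts and 5 were tested, 4 with a higher and 1 with a lower estimate (median 0.05). By total counts that became 1 higher and 4 lower (median -0.18), so the direction in this group depends on the scaling. Rgs18 and Rgs10, which speed the turn-off of G proteins, had 3548 ± 1521 and 3999.6 ± 908 CPM, and 1474 ± 352 and 1880.1 ± 990.5 CPM. Arrb2, an arrestin, had 105 ± 91.6 and 119 ± 204 CPM. Of 10 genes of agonist supply and removal, 4 had counts and 2 were tested. Ptgs1, the cyclooxygenase that makes the thromboxane precursor, had 1144 ± 339 against 2041 ± 563 CPM (estimate -0.59, SE 0.41), and the thromboxane synthase gene Tbxas1 392 ± 443 against 274 ± 387 CPM. Pla2g4a, the phospholipase that frees arachidonic acid, had counts in 4 libraries and was not tested. The enzymes of thromboxane supply thus had counts where the receptor gene Tbxa2r had none.

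**Figure D5:**
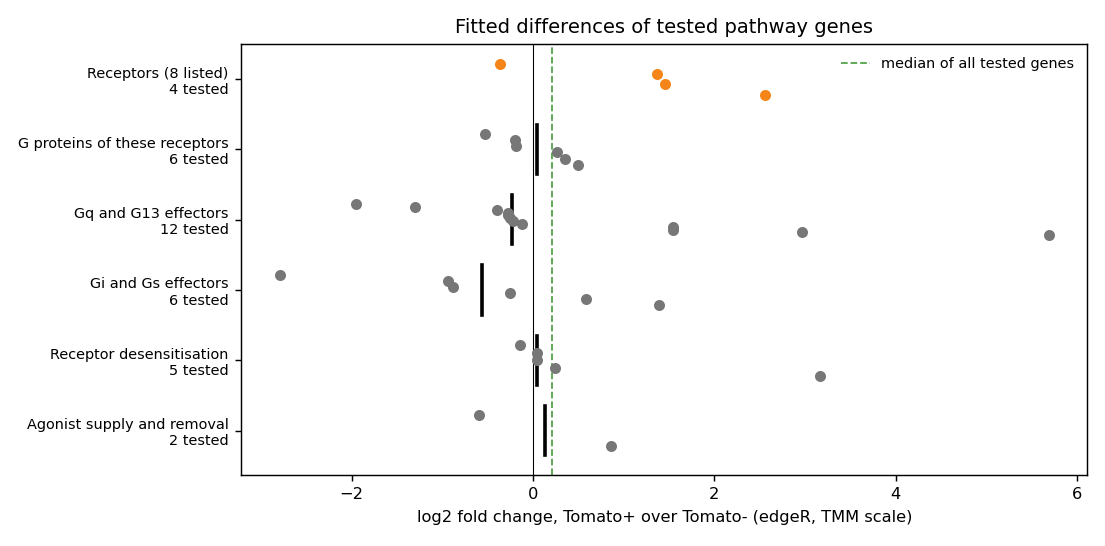
Fitted log2 fold changes, Tomato+ over Tomato- (x axis, edgeR on the TMM scale), of the tested receptors and of the tested genes of 5 signalling lists, 1 point for each gene; black lines are list medians, drawn for the signalling lists, and the dashed line is the median of all tested genes (0.21). The list medians lie between -0.56 and 0.13, below the dashed line, and by total counts between -0.79 and -0.16; no point passed the test.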

How the data were processed

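RNA of sorted mouse platelets was made into complementary DNA with a Smart-seq+ protocol and then, per the labels' protocols, into Nextera XT libraries. The authors deposited raw counts per gene symbol for 10 libraries in 1 table. Trimmomatic, FastQC, STAR, featureCounts and the build mm10 are named in the submitters' processing notes; the sources used here do not give versions, annotation, strand setting or the handling of multiply aligned reads. Of 23420 symbols, 21777 (93.0%) matched GENCODE M21 (GRCm38, the assembly mm10 names), the source of positions, exon lengths and base composition.

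CPM used the sum of all rows. All genes were tested with edgeR 4.0.16 in R 4.3.3 (robust quasi-likelihood F test, TMM factors, default filter with a minimum count of 10 and minimum total of 15, group as the sole term) and Benjamini-Hochberg adjustment over the 1016 genes kept, at 0.05; SE came from the fold change and F. All 45 pairs of libraries differed by more than counting error (chi-square over its degrees of freedom at least 451). Alternatives were DESeq2 1.42.0, limma 3.58.1 (voom), an exact permutation test, other scalings and filters, a replicate block, and libraries left out. The receptors and lists, and the limit of 1000 detected genes, were chosen with earlier results of these data known. The genes named are the 8 receptors, the 3 most abundant of each signalling list, the 3 genes most like each receptor with counts in at least 6 libraries (predicted and overlapping genes left out) and overlapping or neighbouring genes; Gnaq, Gna13, P2ry13, F2rl1 and the markers are named from the lists for their counts.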

Additional observations from a re-analysis of the deposited data

Results flagged for a closer look

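Examined were 19 sets of 5 libraries. In 6 of them, a library stood apart from the rest of its group by more than Dixon's 95% critical value. For normally distributed values chance gives about 1 in 20. Levels with libraries at 0 and ratios of counts need not be so distributed, so 6 of 19 is not read as an excess over that rate. That rate does not apply to P2ry1, F2r and Ptgir in Tomato-, where 4 libraries were at 0 and any single count sets the library apart. P2rx1 was at 2711 CPM in Tomato+ replicate 3, against 1649.9 CPM in the next library. P2ry1 at 151 CPM and F2r at 152 CPM were both in Tomato- replicate 3, with the other 4 Tomato- libraries at 0. Ptgir was at 290.3 CPM in Tomato+ replicate 2, with 32.7 CPM in the next, and at 46.9 CPM in Tomato- replicate 4, with 0 in the others. The ratio of P2ry12 to P2rx1 counts was 38.2 in Tomato- replicate 1, where P2rx1 was at its lowest level of 104 CPM, against 6.0 in the next library.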

How the results depend on the processing

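No receptor was called in any setting that gave it an adjusted p. The sign held in 20 other settings for P2rx1 (log2 fold change 1.01 to 1.65, smallest adjusted p = 0.369) and P2ry12 (-0.64 to -0.20), and in 19 for F2rl2 (0.62 to 4.36) and P2ry1 (1.26 to 13.96), which did not pass the filter of 10 counts in every library. The smallest adjusted p of any receptor was that of F2r in edgeR with no filter on low counts (0.128). There, 1764 of 4692 genes had an unadjusted p under 0.05, and F2r had counts in 1 library. With 1 library left out, the ranges were 1.09 to 1.64, -0.52 to -0.23, 0.62 to 2.54 and 2.25 to 13.96. Over all genes, edgeR called 0 at each setting, limma voom 1 (Ctla2a), limma voom with the replicate block 2 and DESeq2 216; of the signalling genes DESeq2 called 1, Grk6, seen in 3 libraries of Tomato+ and 1 of Tomato-. The cause of these differences was not tested. F2r had no adjusted p in DESeq2. Using the longest transcript as length or 10 counts for detection moved no level or library count beyond its spread.

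The labels do not say whether a shared replicate number marks a shared animal or day. Correlations of the deviations of same-numbered libraries were 0.03, -0.03, -0.11, 0.12 and -0.03. Of 5 Tomato+ libraries, 2 correlated best with their own number. With libraries this uneven, low correlations cannot show that nothing was shared. With the replicate block in edgeR, P2rx1 had a log2 fold change of 1.65 and P2ry12 of -0.36, and 0 genes were called.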
